A study of Mus musculus with 53 samples.

Results

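The constitutive proteasome subunit genes are described here across mouse mammary tumours that differed in ploidy, host, drug, antibody and time. The members were every gene named PSMA, PSMB, PSMC, PSMD, PSME, PSMF or PSMG with a number, leaving out the immunoproteasome genes PSMB8, PSMB9 and PSMB10. The rule used names only, and it found 45 genes in each of 3 deposited tables of 24360, 20185 and 19176 genes. Of these, 43 passed the filter on low values in every table. PSMA8, an alpha subunit known from testis, and PSMB11, the beta subunit of the thymic cortex, did not pass, and at most 1 library held either above 1 CPM (reads of a gene per 1000000 reads).

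The tumours grew from TA3 Hauschka cells, a mouse mammary tumour line engineered into a form without (WGD-) and a form with (WGD+) whole genome doubling. The cells were placed with Matrigel in the inguinal mammary fat pad of female mice aged 6 weeks, and bulk RNA was sequenced from 53 tumours in 18 groups. The hosts were A/J mice, or mice titled NSG whose strain the labels give as NOD.Cg-Prkdcscid Il2rgtm1Wjl with Tg(CMV-IL3,CSF2,KITLG)1Eav/MloySzJ. Mice with the scid and Il2rg alleles are known to lack T and B cells and working natural killer cells and to keep myeloid cells, and the Tg transgene expresses the human cytokines IL3, CSF2 and KITLG from the CMV promoter. One experiment crossed ploidy, host and the survivin suppressant YM-155 or its vehicle for 14 days, in 8 groups of 3. Another treated A/J mice with either tumour for 14 days with anti-PD-L1, anti-CD8 or an isotype antibody. It held 3 libraries a group except WGD- with anti-CD8, which held 2. The last compared day 8 with day 14 in A/J mice, in 4 groups of 3. Each ploidy form came from engineering 1 line, and the labels do not say that replicates came from separate mice, so p-values cover the spread between these samples, which may be technical. The 3 tables were scaled separately, so every test stayed within a table.

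The proteasome is the cell's main machine for destroying proteins tagged with ubiquitin. Its 20S core stacks rings of alpha subunits, which form the gate, around rings of beta subunits, of which PSMB5, PSMB6 and PSMB7 cut the substrate. A 19S cap of ATPases (PSMC), which unfold and thread the substrate, and of other subunits (PSMD), which bind and trim ubiquitin, sits on the core. The PSME genes encode other activators: PSME1 and PSME2 form the PA28 alpha beta ring, known to be induced by interferon gamma and to favour the making of antigenic peptides, PSME3 forms the nuclear PA28 gamma ring and PSME4 is PA200. PSMF1 is the inhibitor PI31 and the PSMG genes encode chaperones that assemble the core.

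The promoters of 4 members are shown because the results turn on PSME2 and PSMA7, and because PSMB5 and PSMB6 hold the core of the antioxidant response element, at which proteasome genes are known to be induced together. They come from RefSeq on GRCm38.p6, run 5′ to 3′ on the strand of the gene, and stop before the gene body. PSME2 lies at chr14:55591114-55591351 on the minus strand, PSMB5 at chr14:54618023-54618245 on the minus strand, PSMB6 at chr11:70525107-70525356 on the plus strand and PSMA7 at chr2:180042465-180042714 on the minus strand. Capitals mark the antioxidant core TGACNNNGC in PSMB5 and PSMB6 and the CCAAT box in PSMA7.
PSME2: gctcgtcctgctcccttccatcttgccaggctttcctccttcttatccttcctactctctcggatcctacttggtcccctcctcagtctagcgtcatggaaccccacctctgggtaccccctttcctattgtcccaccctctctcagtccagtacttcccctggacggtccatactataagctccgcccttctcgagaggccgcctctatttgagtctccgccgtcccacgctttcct
PSMB5: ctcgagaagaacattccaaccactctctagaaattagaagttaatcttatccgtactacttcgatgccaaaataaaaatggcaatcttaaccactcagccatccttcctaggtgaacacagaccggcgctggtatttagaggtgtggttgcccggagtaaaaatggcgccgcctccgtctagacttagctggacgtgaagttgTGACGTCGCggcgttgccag
PSMB6: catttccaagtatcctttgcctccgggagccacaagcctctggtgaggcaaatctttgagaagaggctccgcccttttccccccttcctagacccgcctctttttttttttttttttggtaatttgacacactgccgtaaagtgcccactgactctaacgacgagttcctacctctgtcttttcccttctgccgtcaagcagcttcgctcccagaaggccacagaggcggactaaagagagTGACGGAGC
PSMA7: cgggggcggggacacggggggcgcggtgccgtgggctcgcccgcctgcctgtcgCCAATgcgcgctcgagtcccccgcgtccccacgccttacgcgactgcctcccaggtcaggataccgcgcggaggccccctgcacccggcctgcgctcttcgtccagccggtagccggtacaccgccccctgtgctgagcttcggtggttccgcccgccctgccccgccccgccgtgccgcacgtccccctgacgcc
Promoters were found for 37 of the 45 members, the others being PSMA8, PSMB1, PSMB2, PSMB7, PSMC3, PSMD3, PSMD7 and PSMG2. In the 250 bases before the RefSeq start, 4 motifs were searched on both strands. The antioxidant core TGACNNNGC stood in 5 of the 37 (13.5%), against 11.5% of the promoters of 27025 genes. The CCAAT box, written CCAAT, stood in 13 (35.1% against 37.5%). The gamma-activated site TTCNNNGAA stood in 1 (2.70% against 8.13%) and the interferon-stimulated core GAAANNGAA in 3 (8.11% against 8.18%). Neither PSME1 nor PSME2 held any of these letters in the windows searched. The PSME1 window, chr14:55578244-55578493, lies inside the GENCODE gene model given below. The bases before the start of that model were not searched. PSME1 and PSME2 are neighbours on chromosome 14, at chr14:55578123-55581529 on the plus strand and chr14:55587441-55591113 on the minus strand in the GENCODE gene models.

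Libraries held 3232351 to 7752293 reads in the YM-155 experiment, 9569856 to 15468015 in the antibody experiment and 5248955 to 12217113 in the time course. The summed level of 6 tumour epithelium markers ran from 720 to 3131 CPM, and none of the 6 was at 0 in any group. Over all genes, 4 libraries correlated less well with their nearest library than the others of their table: A/J WGD- vehicle replicates 1 and 2, WGD- day 8 replicate 1 and WGD+ day 8 replicate 3. Summed hepatocyte markers were 1439 CPM in A/J WGD- vehicle replicate 2 (14.2 and 80.4 in the others of its group). Fibroblast markers in this group summed to 1454 and 1876 CPM in replicates 1 and 2 and to 108 in replicate 3. In WGD- day 8 replicate 1 fibroblast markers summed to 7326 CPM (553 and 893 in the others) and adipocyte markers to 919 (19.8 and 63.1). In WGD+ day 8 replicate 3 skeletal muscle markers summed to 14789 CPM (49.7 and 59.4 in the others). The part of these cells in the day 8 results was not tested. A ploidy score, from genes called and at least 2-fold apart between NSG WGD+ and WGD- vehicle tumours and without PSM genes, put 0 libraries of the YM-155 and antibody experiments on the side against their titles, which says nothing of the 6 NSG vehicle libraries that chose its genes. In the time course, where 41 higher and 121 lower genes entered, it put 2 there: the library titled WGD- day 8 replicate 3, at 0.600, and the library titled WGD+ day 8 replicate 3, at -0.331. Called changes of members that rest on these libraries are given with and without them. Values of other genes are given with all libraries.

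Across 23 comparisons of groups, 9 called at least 1 member by limma at an adjusted p under 0.05 over all genes. Of the 43 tested members, 32 were called at least once. The same share over all genes was not counted, so the 32 do not set the members apart. The host comparison in WGD- vehicle tumours alone called 25 members and 4768 of 13826 genes. PSME1 and PSME2 were called most often, in 6 comparisons each, and PSMA7 followed with 5. PSMB4, PSMC3 and PSMG4 were called in 3. The 11 members never called were PSMB3, PSMC4, PSMC5, PSMD2, PSMD5, PSMD7, PSMD12, PSME3, PSMF1, PSMG1 and PSMG3. All levels below are log2(CPM + 1) as deposited, and changes are differences of these levels, which understate changes of genes at low counts. In bulk tissue, fewer cells of a type and less RNA per cell cannot be told apart.

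**Figure D1:**
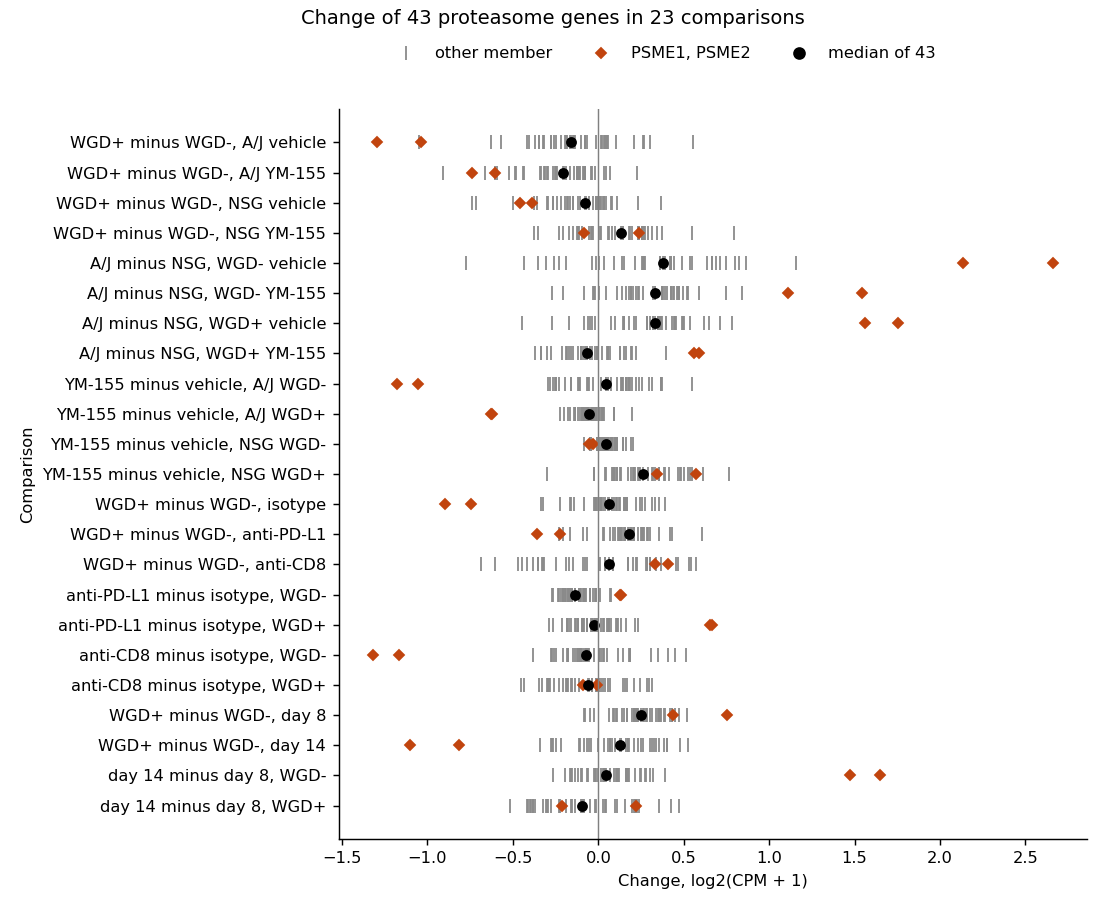
Changes of all 43 tested members in the 23 comparisons, as differences of log2(CPM + 1). PSME1 and PSME2 reach 2.13 and 2.66 between A/J and NSG hosts of WGD- vehicle tumours and stand apart from the other members in several rows.

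The host comparison moved the most members. In WGD- vehicle tumours, 22 of 43 members were higher in A/J than in NSG hosts and 3 were lower, while 16.2% of all genes tested were higher and 18.3% lower. The members' median change was 0.38, against -0.03 over all genes, and 0.36 without PSME1 and PSME2. In WGD- tumours given YM-155, 10 members were higher, against 4.77% of all genes, with a median change of 0.33. In WGD+ vehicle tumours, 12 were higher, against 7.2% of all genes, with a median change of 0.33. In WGD+ tumours given YM-155, limma called 0 members, against 0.0362% of all genes, 5 members had an unadjusted p under 0.05 (12.7% of all genes), and the median change was -0.06. The vehicle comparisons share no library, and 10 members were higher in both: PSMA4, PSMA7, PSMB4, PSMB6, PSMD4, PSMD8, PSMD13, PSME1, PSME2 and PSMG4. These were 45.5% of the 22 and 83.3% of the 12. The same overlap over all genes was not counted, so these shares do not set the members apart.

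The PA28 alpha beta activator changed most between hosts. PSME2 stood at 8.90, 8.57 and 8.60 in A/J WGD- vehicle tumours and at 6.08, 6.08 and 5.92 in NSG WGD- vehicle tumours. The groups were far apart, and the change was 2.66 (SE 0.32, adjusted p 5.21e-05 by limma), a 6.45-fold ratio of CPM. PSME1 stood at 8.85, 8.79 and 8.89 in A/J and at 6.69, 6.73 and 6.72 in NSG tumours, a change of 2.13 (SE 0.25, adjusted p 5.21e-05 by limma) and a 4.42-fold ratio. Within each host these 3 libraries lay close together. In WGD+ vehicle tumours PSME2 stood at 7.80, 7.13 and 7.25 in A/J and at 5.59, 5.84 and 5.48 in NSG hosts, a change of 1.75 (SE 0.32, adjusted p 0.00277 by limma). PSME1 there stood at 8.12, 7.52 and 7.78 against 6.26, 6.42 and 6.06, a change of 1.56 (SE 0.25, adjusted p 0.00155 by limma). Again no A/J library reached down to an NSG library.

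With YM-155 the A/J libraries spread out. PSME2 stood at 7.14, 8.27 and 7.13 in A/J WGD- tumours and at 5.83, 5.91 and 6.18 in NSG WGD- tumours, a change of 1.54 (SE 0.32, adjusted p 0.0128 by limma). PSME1 stood at 7.51, 8.53 and 7.32 against 6.49, 6.71 and 6.84, a change of 1.11 (SE 0.25, adjusted p 0.0169 by limma). A/J replicate 2 was the high library for both genes. In WGD+ tumours PSME2 stood at 6.17, 7.69 and 6.47 in A/J and at 6.11, 6.63 and 5.90 in NSG hosts, so the groups overlapped, and the change of 0.56 had an adjusted p of 0.47 by limma. PSME1 changed by 0.59 there (adjusted p 0.351 by limma). PSME2B, a retrocopy of PSME2, had changes near those of PSME2 (2.48 in WGD- vehicle tumours), and reads of the pair could have been split between them.

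**Figure D2:**
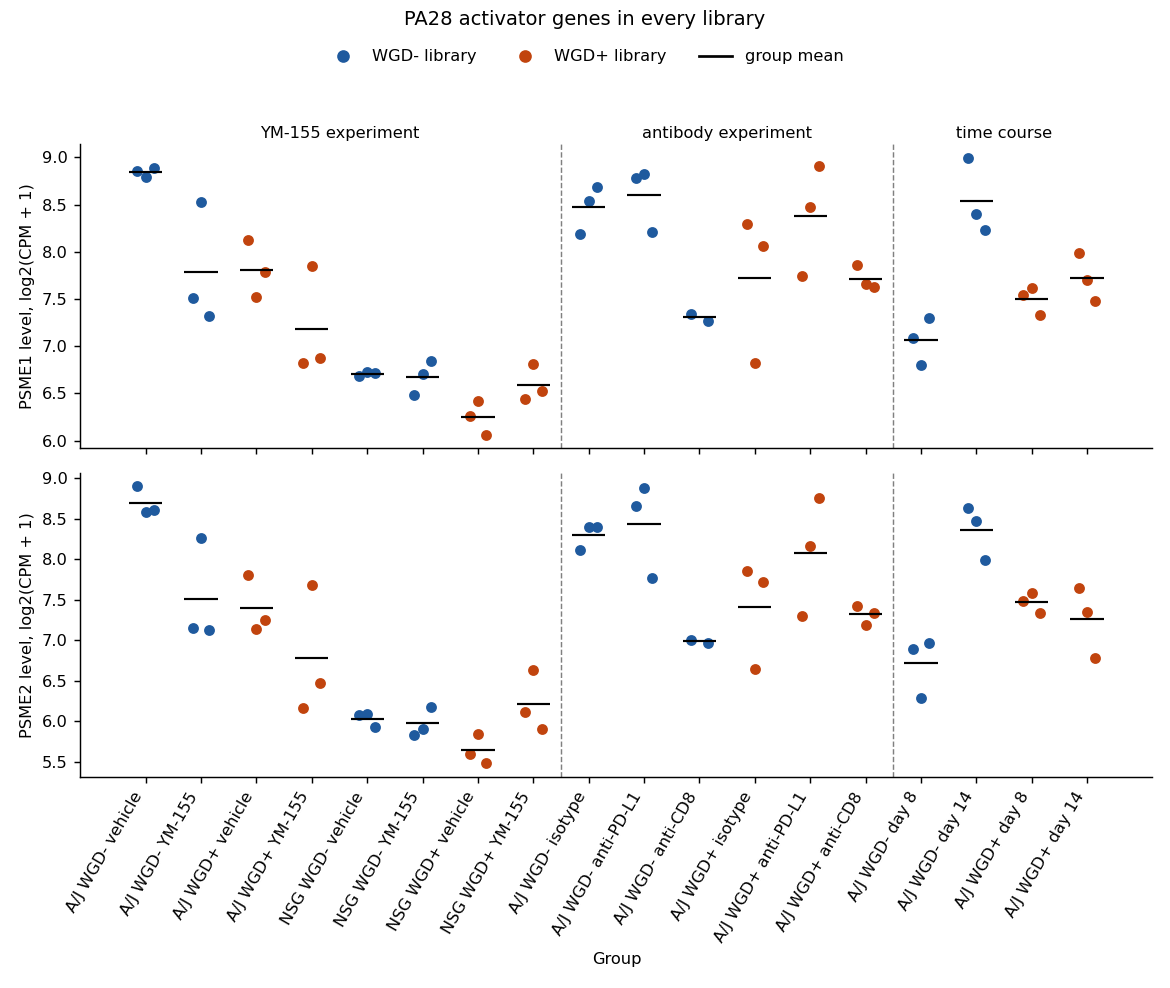
Levels of PSME1 and PSME2, as log2(CPM + 1), in every library of the 18 groups, with group means as bars. The A/J WGD- vehicle libraries of PSME2 lie between 8.57 and 8.90, above all NSG libraries, and the WGD- day 8 libraries lie between 6.28 and 6.96.

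Between hosts of vehicle tumours, markers of interferon gamma response and of T cells moved with these genes. The summed level of 5 response genes (IRF1, GBP2, GBP3, CXCL9, CIITA) ran from 567 to 841 CPM in A/J WGD- vehicle tumours and from 36.7 to 48.2 in NSG WGD- vehicle tumours, and 5 of 5 were higher in A/J. In A/J WGD- tumours given YM-155 it ran from 47.4 to 618, in A/J WGD+ vehicle tumours from 94.4 to 602, and in A/J WGD+ tumours given YM-155 from 54.2 to 209. In NSG WGD+ vehicle tumours it ran from 48.6 to 63.9. It was thus above NSG WGD- vehicle tumours, while the group means of PSME1 and PSME2 were lower there. With YM-155 it ran from 37.2 to 51.4 in NSG WGD- and from 60.6 to 75.3 in NSG WGD+ tumours. A list of 6 T and cytotoxic cell markers (CD3E, CD3D, CD8A, NKG7, GZMB, PRF1) summed to between 14.9 and 17.9 CPM in A/J WGD- vehicle tumours and to at most 0.502 in any NSG library. All 6 were at 0 in the NSG WGD+ vehicle libraries. A list of 4 hepatocyte markers summed to between 14.2 and 1439 CPM in A/J WGD- vehicle tumours, with all 4 higher than in NSG hosts, and 5 of 5 proliferation markers were lower. Also lower in A/J were 3 of 3 endothelium, 2 of 5 skeletal muscle and 1 of 6 fibroblast markers (list medians -1.01, -1.25 and -1.01), and 2 of 6 tumour epithelium markers were higher (median 0.47). The fibroblast sums of the A/J group were split between replicates, as given above. The part of these cells and states in the members' changes was not tested.

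The core rings followed at smaller sizes. In WGD- vehicle tumours all 7 alpha subunits tested were higher in A/J hosts, by 0.43 to 0.82. PSMA7 was the first of them, at 9.43, 9.64 and 9.40 in A/J and 8.65, 8.62 and 8.73 in NSG tumours (0.82, SE 0.15, adjusted p 0.000462 by limma). PSMA1 followed PSMA4, at 7.98, 7.97 and 7.59 against 7.25, 7.12 and 7.17 (0.66, adjusted p 0.00104 by limma). Of 4 beta subunits without a catalytic site, PSMB1 and PSMB4 were higher, by 0.87 and 0.64. PSMB1 stood at 8.97, 9.03 and 8.98 in A/J and at 8.08, 8.18 and 8.13 in NSG tumours, with no overlap. Of the 3 catalytic subunits, PSMB5, with chymotrypsin-like activity, rose by 0.54 and PSMB6, with caspase-like activity, by 0.39. PSMB7, the trypsin-like subunit, had a change of 0.26 that was not called.

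The 19S cap was mixed. Of 6 ATPases only PSMC6 was called in WGD- vehicle tumours (0.39), and the other changes of PSMC genes were all above 0, down to 0.00 for PSMC3. The scaffold subunit PSMD1 rose by 0.75 and the ubiquitin receptor PSMD4 by 0.38, while PSMD2 was not called. Of the base chaperones PSMD10 rose by 0.80. In the lid PSMD13, PSMD8 and PSMD11 were higher, by 0.66, 0.43 and 0.36, and PSMD6 and PSMD3 were lower, by -0.43 and -0.35. The core chaperones PSMG4 and PSMG2 rose by 1.16 and 0.69. PSMG4 stood at 5.86, 6.46 and 6.20 in A/J and at 4.86, 4.97 and 5.22 in NSG tumours, again with no overlap.

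PSME4 was called lower in 1 of the 4 host comparisons. It stood at 6.26, 5.92 and 6.44 in A/J WGD- vehicle tumours and at 7.14, 6.87 and 6.92 in NSG tumours, a change of -0.77 (SE 0.20, adjusted p 0.00615 by limma). Its changes in the other 3 host comparisons were -0.27, -0.45 and -0.17 and were not called. PSME3 changed by -0.26, 0.00, -0.04 and -0.05 in the 4 host comparisons and the inhibitor PSMF1 by -0.19, 0.11, -0.09 and -0.10, with no call.

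Calls in the smaller host comparisons were spread over several roles. In WGD- tumours given YM-155 these were PSME2, PSME1, PSMG4 (0.84), PSMB1 (0.75), PSMD10 (0.59), PSMA6 (0.49), PSMA2 (0.47), PSMB4 (0.47), PSMA3 (0.46) and PSMC1 (0.37). In WGD+ vehicle tumours they were PSME2, PSME1, PSMG4 (0.78), PSMD13 (0.71), PSMD9 (0.65), PSMB4 (0.62), PSMD4 (0.50), PSMA7 (0.49), PSMB2 (0.45) and PSMD8 (0.45), besides PSMA4 and PSMB6. PSMB4 stood at 8.77, 8.73 and 8.66 in A/J WGD- vehicle, 8.43, 8.71 and 8.52 in A/J WGD+ vehicle, 8.07, 8.13 and 8.04 in NSG WGD- vehicle and 7.93 in each of the NSG WGD+ vehicle libraries. All A/J vehicle libraries of PSMB4 were thus above all NSG vehicle libraries.

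**Figure D3:**
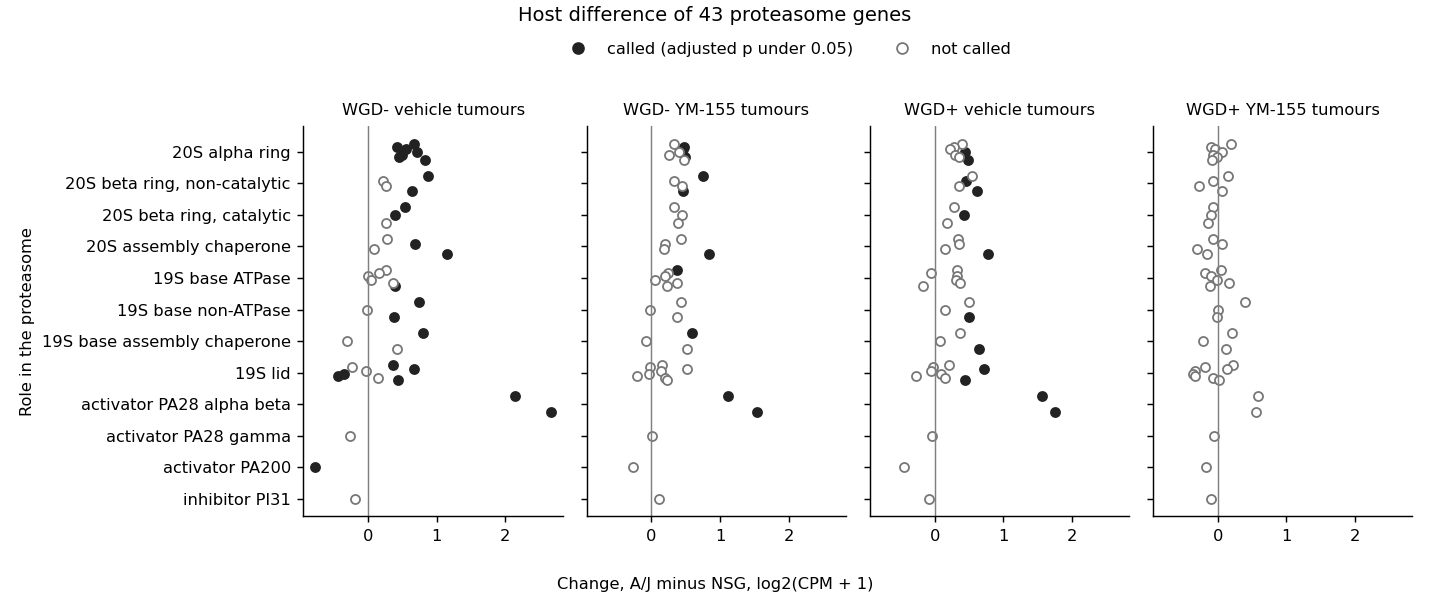
Change of every tested member between A/J and NSG hosts, as a difference of log2(CPM + 1), in each of the 4 pairs of groups, ordered by role. PSME1 and PSME2 lie far to the right in both vehicle comparisons (up to 2.66), most core subunits lie between 0 and 1, and WGD+ tumours given YM-155 centre near 0 (median -0.06).

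Leaving out libraries changed these counts. Without A/J WGD- vehicle replicates 1 and 2, which leaves 1 library assumed to vary like the other groups, 10 members were called in WGD- vehicle tumours and PSME2 and PSME1 kept their calls (2.57 and 2.18). In WGD- tumours given YM-155 the count was 0 without NSG replicate 2, 1 without NSG replicate 1, 2 without A/J replicate 1 or 2 and 5 under quantile scaling. In WGD+ vehicle tumours it was 3 without A/J replicate 2, 7 without A/J replicate 3, and 6, 6 or 5 with NSG replicate 1, 2 or 3 left out, and it was 25 when only the compared groups were fitted. Tests of whether the ploidy difference itself differed between hosts called 0 members in vehicle tumours and 0 in tumours given YM-155, where limma called 0% of all genes in each. At an unadjusted p under 0.05 there were 3 and 15 members, against 12.9% and 7.65% of all genes.

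The comparison of WGD+ with WGD- tumours gave fewer calls, and in the YM-155 experiment all of them were lower in WGD+. In A/J vehicle tumours 6 of 43 members were lower, against 4.8% of all genes. They were PSME2, PSMA7, PSME1, PSMB5, PSMC6 and PSMC3. In A/J tumours given YM-155 5 were lower, against 1.33%: PSMA7, PSMC3, PSMD14, PSMB7 and PSMC2. In NSG vehicle tumours PSMC3 and PSMA7 were lower, against 1.95%. In NSG tumours given YM-155 limma called 0 members, against 1.58% of all genes, with 7 at an unadjusted p under 0.05, against 15.6% of all genes. The largest changes there were those of PSMG4 (0.80, adjusted p 0.0698 by limma) and PSMB3 (0.55, adjusted p 0.0789 by limma), and 1 member was called without NSG WGD- YM-155 replicate 3.

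PSMA7, an alpha subunit of the core gate, and PSMC3, an ATPase of the cap, were the members lower in WGD+ in all of those 3 comparisons. PSMA7 stood at 9.43, 9.64 and 9.40 in A/J WGD- vehicle tumours and at 8.26, 8.62 and 8.44 in A/J WGD+ vehicle tumours (-1.05, SE 0.15, adjusted p 0.000267 by limma). With YM-155 it stood at 9.24, 9.34 and 9.15 against 8.28, 8.55 and 8.18 (-0.91, adjusted p 0.00187 by limma), and in NSG vehicle tumours at 8.65, 8.62 and 8.73 against 7.99, 7.87 and 8.0 (-0.71, adjusted p 0.0098 by limma). The ploidy groups did not overlap in any of these 3 pairs. PSMC3 stood at 8.23, 8.27 and 8.23 in NSG WGD- vehicle tumours and at 7.53, 7.49 and 7.50 in NSG WGD+ vehicle tumours (-0.74, SE 0.13, adjusted p 0.00184 by limma). In A/J tumours it stood at 8.29, 8.06 and 8.39 against 7.64, 7.97 and 7.88 with vehicle (-0.42, adjusted p 0.0347 by limma), and at 8.27, 8.53 and 8.48 against 7.86, 7.76 and 7.69 with YM-155 (-0.66, adjusted p 0.00598 by limma). Its groups too did not overlap.

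These genes were then followed through the other ploidy comparisons, after their values had been seen. The change of PSMA7 was -0.35 in NSG tumours given YM-155, -0.33 with isotype antibody, -0.23 with anti-PD-L1, -0.69 with anti-CD8, -0.05 at day 8 and -0.27 at day 14, and none was called. The change of PSMC3 was -0.37, -0.22, -0.16, -0.32, 0.23 and -0.28 in the same order, again with no call. In these 6 comparisons, which did not choose the genes, PSMA7 was below 0 in 6 and PSMC3 in 5, also under quantile scaling. Of all genes tested, 47.1% to 51.9% were below 0 in each. The share of genes below 0 in 5 or 6 of the 6 was not counted. All 6 compare the same engineered forms, so they are not independent of each other. Both genes lie on chromosome 2, where 53.6% (day 8) to 70.2% (NSG YM-155) of the tested genes that are not members were below 0. The day 8 value of PSMA7 became 0.05 without WGD- day 8 replicate 2. Without the libraries that scored against their titles the day 8 values were -0.06 for PSMA7 and 0.07 for PSMC3.

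**Figure D4:**
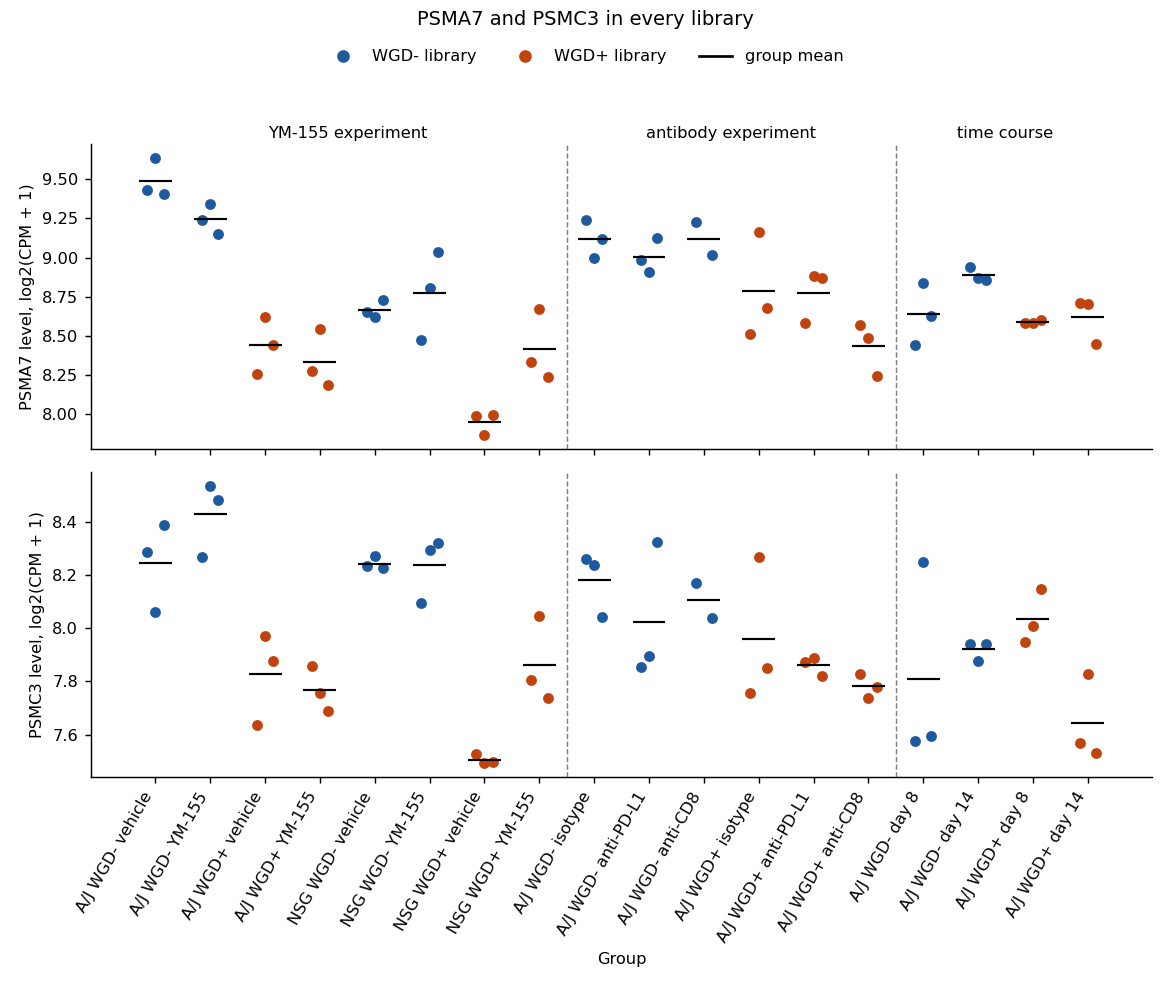
Levels of PSMA7 and PSMC3, as log2(CPM + 1), in every library, WGD- in blue and WGD+ in orange, with group means as bars. In A/J vehicle tumours PSMA7 lies at 9.40 or above in WGD- and at 8.62 or below in WGD+, while the day 8 groups overlap.

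Both genes lie on mouse chromosome 2, PSMA7 at chr2:180036374-180042433 on the minus strand and PSMC3 at chr2:91054009-91066369 on the plus strand, and the genes around them were looked at after this was noticed. Over 1019 tested genes of chromosome 2 that are not members, the median ploidy change was -0.18 in A/J vehicle, -0.26 in A/J YM-155, -0.16 in NSG vehicle and -0.22 in NSG YM-155 tumours. Over the 12332 genes of other chromosomes it was 0.05, 0.00, 0.02 and 0.01. The chromosome's median was the lowest of 20 chromosomes in 7 of the 9 ploidy comparisons and ranked the second lowest with isotype antibody and at day 8. The changes of PSMA7 and PSMC3 were larger in size than the chromosome's median in each called comparison. A call selects large changes, so this cannot tell the 2 genes from the rest of the chromosome. Of the 45 members, 6 lie on chromosome 2: PSMA7, PSMC3, PSMB7, PSMD14, PSMD5 and PSMF1. Of the members called lower, PSMA7, PSMC3, PSMB7 and PSMD14 lie there in A/J YM-155 tumours. In A/J and NSG vehicle tumours only PSMA7 and PSMC3 do. How many of all genes called lower lie on chromosome 2 was not counted. Of the chromosome's other tested genes, 75.7% were below 0 in A/J YM-155, 65.4% in A/J vehicle and 69.7% in NSG vehicle tumours. On other chromosomes 49.8%, 46.0% and 47.4% were. The part of the chromosome in these changes was not tested.

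Among the ploidy comparisons, the PA28 genes were called lower in WGD+ only where the host was A/J and the drug was vehicle. PSME2 stood at 8.90, 8.57 and 8.60 in WGD- and at 7.80, 7.13 and 7.25 in WGD+ tumours (-1.30, SE 0.32, adjusted p 0.0149 by limma), and PSME1 at 8.85, 8.79 and 8.89 against 8.12, 7.52 and 7.78 (-1.04, SE 0.25, adjusted p 0.0142 by limma). The groups did not overlap for either gene. In A/J tumours given YM-155 PSME2 stood at 7.14, 8.27 and 7.13 in WGD- and at 6.17, 7.69 and 6.47 in WGD+ tumours. PSME1 stood at 7.51, 8.53 and 7.32 against 6.82, 7.85 and 6.88 there. Both group means were lower in WGD+, with overlap and no call. In NSG vehicle tumours the changes were -0.39 for PSME2 and -0.46 for PSME1, with no call. The difference of differences between hosts with vehicle was -0.91 for PSME2 (adjusted p 0.396 by limma) and -0.58 for PSME1 (adjusted p 0.484 by limma). The catalytic subunit PSMB5 stood at 5.69, 5.66 and 5.66 in A/J WGD- vehicle and at 4.77, 5.27 and 5.09 in A/J WGD+ vehicle tumours (-0.63, adjusted p 0.0207 by limma). PSMB7 was called with YM-155, at 8.81, 8.63 and 8.65 against 8.34, 7.95 and 8.03 (-0.59, adjusted p 0.0257 by limma). PSMB6 changed by -0.26, -0.31, -0.30 and 0.23 in the 4 ploidy comparisons of this experiment, with no call. Each of the 3 catalytic subunits was thus below 0 in both A/J comparisons, and also in NSG vehicle tumours. So were most members: 30 of 43 in A/J vehicle, 39 in A/J YM-155 and 32 in NSG vehicle tumours. Of all genes tested, 47.4%, 51.9% and 49.0% were below 0 there. The ATPase PSMC6 fell by 0.57 in A/J vehicle tumours, and the deubiquitinase PSMD14 and the ATPase PSMC2 fell by 0.60 and 0.53 with YM-155.

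The ploidy counts moved with single libraries. In A/J vehicle tumours leaving out WGD+ replicate 3 gave 2 calls, WGD+ replicate 1 gave 3 and WGD- replicate 3 gave 9. Without WGD- replicates 1 and 2, which stand apart, 1 member (PSMA7, at -0.96) was called and PSME2 and PSME1 stood at -1.21 and -1.08 without a call. With YM-155 the count was 2 without WGD- replicate 2 and 3 without WGD- replicate 1 or WGD+ replicate 3, and in NSG vehicle tumours it was 1 without WGD- replicate 3 or WGD+ replicate 2. Fitted on the compared groups alone, the counts were 2 in A/J vehicle, 0 in A/J YM-155 and 9 in NSG vehicle tumours. The hepatocyte markers in A/J WGD- vehicle tumours, given above, and 4 of 5 proliferation markers, higher in WGD+, moved with the same groups. So did 3 of 6 tumour epithelium, 2 of 4 tested T and cytotoxic cell and 2 of 6 fibroblast markers, lower in WGD+ A/J vehicle tumours (list medians -0.70, -1.44 and -1.52). The fibroblast sum was split within the WGD- group, at 1454 and 1876 CPM in replicates 1 and 2 and 108 in replicate 3. In the WGD+ group it ran from 181 to 296. The part of these markers in the members' changes was not tested.

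In A/J WGD- tumours PSME2 and PSME1 were lower with YM-155 than with vehicle. PSME2 stood at 7.14, 8.27 and 7.13 with YM-155 and at 8.90, 8.57 and 8.60 with vehicle (-1.18, SE 0.32, adjusted p 0.0422 by limma), and PSME1 at 7.51, 8.53 and 7.32 against 8.85, 8.79 and 8.89 (-1.06, SE 0.25, adjusted p 0.0298 by limma). These were the only 2 members lower, against 1.97% of all genes, and no member was higher. All treated libraries lay below the vehicle libraries, with replicate 2 close to them. The 5 interferon gamma response genes summed to 618 CPM in the highest treated library and 47.4 in the lowest, with none called. The calls depended on the setting: 0 members were called without the libraries that stand apart, by limma with voom weights on the recovered reads, and on the compared groups alone. The count was also 0 without vehicle replicate 2 or YM-155 replicate 1 or 3, 1 without vehicle replicate 1 and 3 without vehicle replicate 3.

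In A/J WGD+ tumours limma called 0 members, with 0% of all genes called and 1 member at an unadjusted p under 0.05 (3.22% of all genes). PSME1 changed by -0.63 and PSME2 by -0.62 (adjusted p 1 by limma). The drug's change in WGD+ less that in WGD- was 0.43 for PSME1 and 0.56 for PSME2, and this test called 0 of 43 members and 0% of all genes, with 3 members at an unadjusted p under 0.05 (11.9% of all genes). In NSG WGD- tumours YM-155 against vehicle called 0 members and 0% of all genes, with 0 at an unadjusted p under 0.05 (5.04% of all genes), and the largest changes were 0.20 for PSMG2 and 0.19 for PSMA5. In NSG WGD+ tumours limma called 0 members and 0.00723% of all genes, with 16 at an unadjusted p under 0.05, against 13.1% of all genes. There 40 of 43 members had a change above 0, with a median of 0.26 against -0.02 over all genes. PSMG4 stood at 5.65, 6.24 and 5.60 with YM-155 and 5.13, 5.28 and 4.77 with vehicle (0.77, adjusted p 0.152 by limma), and PSMB3 at 7.91, 8.16 and 7.82 against 7.40, 7.29 and 7.35 (0.61, adjusted p 0.124 by limma). The catalytic subunits PSMB5, PSMB6 and PSMB7 had changes of 0.55, 0.54 and 0.29, with no call.

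The antibodies called no member. Anti-PD-L1 against isotype gave 0 calls in WGD- tumours (0.00723% of all genes) and 0 in WGD+ tumours (0%), with 0 members at an unadjusted p under 0.05 in each by limma, against 3.76% and 3.64% of all genes. PSMB7 had the largest change in WGD- tumours, at -0.27, followed by PSMF1 at -0.26. In WGD+ tumours PSME2 stood at 7.30, 8.16 and 8.75 with anti-PD-L1 and at 7.85, 6.65 and 7.71 with isotype (0.67), and PSME1 at 7.75, 8.47 and 8.90 against 8.29, 6.82 and 8.06 (0.65). The groups overlapped for both genes.

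Anti-CD8 against isotype gave 0 calls by limma in WGD- tumours (0.00723% of all genes) with 5 members at an unadjusted p under 0.05 (12.1% of all genes), and 0 calls in WGD+ tumours (0%) with 6 (7.52%). In WGD- tumours PSME2 stood at 7.01 and 6.96 with anti-CD8 and at 8.12, 8.39 and 8.40 with isotype (-1.32, SE 0.41, adjusted p 0.368 by limma). PSME1 stood at 7.34 and 7.27 against 8.19, 8.54 and 8.69 (-1.17, SE 0.38, adjusted p 0.368 by limma). The groups did not overlap, although the model, which draws its spread from all groups of the table, made no call. The 5 interferon gamma response genes summed to 81.5 to 82.7 CPM with anti-CD8 and to 295 to 654 with isotype. In WGD+ tumours PSME2 and PSME1 changed by -0.09 and -0.01, and the largest changes were -0.45 for PSME4 and -0.44 for PSMC6. The antibody's change in WGD+ less that in WGD- was 1.23 for PSME2 (adjusted p 0.285 by limma) and 1.16 for PSME1 (adjusted p 0.281 by limma). That test called 0 members and 0% of all genes, with 9 members at an unadjusted p under 0.05 (16.6% of all genes). The same test for anti-PD-L1 called 0 members and 0% of all genes, with 0 members at an unadjusted p under 0.05 (1.68% of all genes).

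Ploidy in the antibody experiment gave no call of a member either. With isotype limma called 0 members (1.1% of all genes), with 5 at an unadjusted p under 0.05 (18.9% of all genes), and PSME2 and PSME1 changed by -0.90 and -0.75. With anti-PD-L1 it called 0 (0.701%), with 6 at an unadjusted p under 0.05 (22.2%). The chaperone PSMG2 came closest there (0.61, adjusted p 0.0545 by limma), followed by PSMB3 (0.43). With anti-CD8 it called 0 (1.57%), with 12 at an unadjusted p under 0.05 (21.2%). PSMA7 stood at 8.57, 8.49 and 8.25 in WGD+ and at 9.22 and 9.02 in WGD- tumours (-0.69, adjusted p 0.0641 by limma), and PSME4 changed by -0.61. Without WGD- anti-PD-L1 replicate 3, 6 members were called in the anti-PD-L1 comparison, and without WGD+ anti-CD8 replicate 2, 1 in the anti-CD8 comparison.

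In the time course PSME1 and PSME2 rose with time in WGD- tumours. PSME2 stood at 6.89, 6.28 and 6.96 at day 8 and at 8.63, 8.47 and 7.98 at day 14 (1.65, SE 0.25, adjusted p 0.0109 by limma). PSME1 stood at 7.09, 6.80 and 7.30 at day 8 and at 8.99, 8.39 and 8.23 at day 14 (1.48, SE 0.21, adjusted p 0.0091 by limma). The days did not overlap for either gene. These were the 2 of 43 members higher, against 0.824% of all genes, and no member was lower. Without the libraries that scored against their titles the changes were 1.77 and 1.59 and both calls remained, while the count was 0 without WGD- day 8 replicate 2 and 1 without day 14 replicate 1 or 2. The 5 interferon gamma response genes summed to 55.4 to 91.8 CPM at day 8 and to 477 to 1033 at day 14, with 5 of 5 higher, and all 6 T and cytotoxic cell markers rose.

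In WGD+ tumours limma called 0 members between the days, while 11.2% of all genes were called and 10 members had an unadjusted p under 0.05 (30.3% of all genes). PSME2 stood at 7.48, 7.59 and 7.34 at day 8 and at 7.65, 7.35 and 6.78 at day 14 (-0.21), and PSME1 at 7.55, 7.62 and 7.33 against 7.99, 7.70 and 7.48 (0.22). The days overlapped. The largest changes were -0.52 for PSME4 and 0.47 for PSMG4.

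Between ploidy forms at day 8, PSMA1 was higher in WGD+, at 8.06, 8.16 and 7.84 against 7.41, 7.53 and 7.56 (0.52, SE 0.13, adjusted p 0.0491 by limma). It was the only call among the members, against 0.475% of all genes, and it was lost when any 1 library of the comparison, the libraries that stand apart or those that scored against their titles were left out (0.64 without the last). At day 14 limma called 0 members (0.445% of all genes), with 7 at an unadjusted p under 0.05 (16.6%). PSME2 changed by -1.10 (adjusted p 0.0767 by limma) and PSME1 by -0.82 (adjusted p 0.105 by limma). Without WGD- day 14 replicate 3, 2 members were called.

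The ploidy difference itself differed between the days for 3 members, against 1.83% of all genes, all with a lower value at day 14. PSME2 moved by -1.86 (SE 0.35, adjusted p 0.0219 by limma), from 0.76 at day 8 to -1.10 at day 14. PSME1 moved by -1.25 (SE 0.30, adjusted p 0.0451 by limma), from 0.44 to -0.82, and PSMA1 by -0.74 (SE 0.18, adjusted p 0.0483 by limma), from 0.52 to -0.22. Without the libraries that scored against their titles no member was called, and the values were -2.05, -1.46 and -0.86. With the replicate number as a block only PSME2 was called, and the adjusted p of PSME1 and PSMA1 was 0.0536 and 0.0791 by limma. The count was also 0 without WGD- day 14 replicate 1 or 2, WGD+ day 8 replicate 1 or WGD+ day 14 replicate 3, and 1 without WGD- day 8 replicate 2 or 3, WGD+ day 8 replicate 2 or 3, or WGD+ day 14 replicate 1 or 2. All 5 interferon gamma response genes and 3 of 6 T and cytotoxic cell markers were called lower in the same test, and their part was not tested.

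Group means spread differently among members. In the YM-155 experiment the group means of PSME2, PSME1 and PSMA7 spanned 3.05, 2.59 and 1.54, those of the scaffold PSMD2 and the lid subunits PSMD7 and PSMD12 0.20, 0.29 and 0.31, and the median over 43 members was 0.61, wider than the median SD within a group of 0.16. In the antibody experiment PSME2, PSME1 and PSMG2 spanned 1.45, 1.30 and 0.69, and PSMA5, PSMB5 and PSMD2 0.18, 0.20 and 0.20. In the time course PSME2, PSME1 and PSMB3 spanned 1.65, 1.48 and 0.59, and PSMB7, PSMG1 and PSMD14 0.15, 0.19 and 0.21. The median SD within a group was 0.17 and 0.18 in these tables, so across the 3 tables the narrowest spans were about as wide as the spread of replicates.

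In the YM-155 experiment the catalytic subunits spanned more than the median member. PSMB5 ran from 4.76 in NSG WGD+ vehicle tumours to 5.67 in A/J WGD- vehicle tumours, PSMB6 from 7.48 in the same NSG group to 8.23 in A/J WGD- tumours given YM-155 and PSMB7 from 7.96 to 8.70 in those groups. These spans of 0.91, 0.75 and 0.73 were wider than the SD within groups (0.19, 0.16 and 0.15). In the antibody experiment the same genes spanned 0.20, 0.28 and 0.33, and in the time course 0.32, 0.29 and 0.15. PSME3 spanned 0.34, 0.52 and 0.52 in the 3 tables.

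Within groups most members went up and down together. After group means were taken out, the correlation of a member with the mean of the other members had a median of 0.58 over 24 libraries, 0.65 over 17 and 0.68 over 12, and libraries share depth and composition, so this is a description. In the YM-155 experiment the highest were PSMB4 (0.91), PSMA4 (0.88) and PSMB2 (0.81), and the lowest PSME4 (-0.43), PSMF1 (-0.11) and PSMD3 (0.07). In the antibody experiment they were PSMB2 (0.86), PSMD11 (0.86) and PSMC1 (0.85) against PSME2 (-0.33), PSME1 (-0.31) and PSMA1 (-0.06). In the time course they were PSMC1 (0.93), PSMG3 (0.92) and PSMC5 (0.91) against PSMC6 (-0.09), PSMB6 (-0.04) and PSME4 (0.04).

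Genes around the proteasome were read from a list of 28, of which 27 were tested. Between hosts in WGD- vehicle tumours 7 were higher and 7 lower, while 16.2% of all genes tested were higher and 18.3% lower. POMP, which matures the core, rose by 1.09 (adjusted p 0.000345 by limma), the ubiquitin gene RPS27A by 1.02, and the protease DDI2 and the heat shock transcription factor HSF1 fell by 1.46 and 0.78. POMP was also higher in A/J hosts of WGD- tumours given YM-155 (0.65) and of WGD+ vehicle tumours (0.60), as was the small lid subunit SEM1 (0.50, 0.60 and 0.55 in the 3 comparisons). Between ploidy forms POMP fell by 0.79 in A/J vehicle tumours, ADRM1, a ubiquitin receptor of the cap, fell by 0.54 in A/J tumours given YM-155 and by 0.62 in NSG vehicle tumours, and SEM1 rose by 0.70 in NSG tumours given YM-155. NFE2L1, the transcription factor that is known to induce proteasome genes, fell by 0.92 in WGD+ at day 8 (adjusted p 0.0461 by limma). That call rests on the day 8 libraries that stand apart and those that scored against their titles. Its value without them is not given here. No listed gene was called for YM-155 against vehicle or for either antibody.

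The immunoproteasome genes, which replace the catalytic subunits, had larger changes than any member between hosts in WGD- vehicle tumours: PSMB9 by 5.10, PSMB8 by 3.99 and PSMB10 by 2.74 (adjusted p 0.000226, 0.000291 and 0.00077 by limma). From day 8 to day 14 in WGD- tumours PSMB9 and PSMB8 rose by 3.57 and 2.95.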

How the data were processed

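RNA from 53 tumours was extracted with RNeasy columns and made into TruSeq Stranded mRNA libraries, per the labels' protocols. The submitters' processing notes name the build mm10, the aligner STAR 2.5.1b and edgeR. Of the read counter and the annotation nothing is given in the sources used here. The authors deposited log2 values, log2(CPM + 1), scaled by TMM within each of 3 tables, per the file names. Groups were taken from the titles, since the genotype field of 12 YM-155 libraries goes against the title. The members and gene lists were chosen with earlier results of these data known. Some genes of the marker and pathway lists are not reported here, and sums and counts leave them out.

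Each deposited value was turned back into reads, and 100% of the values tested were whole within 0.1 reads, which gave the depth and a count alternative. Rows whose symbols had become dates held at most 0.223% of a library's reads and stayed out of the tests, though not out of the authors' library sizes. The test took genes exceeding 1 CPM in 3 or more libraries, 13826 in the YM-155, 13840 in the antibody and 13478 in the time course table. limma 3.58.1 (R 4.3.3, trend and robust settings) was fitted on all groups of a table without a replicate block. p-values were adjusted by Benjamini-Hochberg over all genes tested in a comparison, and 23 comparisons and 6 differences of differences were made. The scripts were tested on simulated data.

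Members named were those called in a comparison, up to 10 by size, or the 2 largest where none was called, with PSMB5, PSMB6, PSMB7, PSME1, PSME2 and PSME3 followed throughout. Members called in the most comparisons, the 3 with the widest and narrowest spans, and the 3 highest and lowest by likeness were named too. PSMB8, PSMB9 and PSMB10 and up to 4 called genes of the pathway list were named as non-members. Alternatives were no filter, log2(CPM + 0.25), quantile scaling, only the compared groups, the replicate number as a block, voom on recovered reads and leaving out each library. Leaving out libraries that stand apart (best correlation more than 3 MAD under the median) or score against their titles was added after seeing the data, as was following PSMA7 and PSMC3.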

Additional observations from a re-analysis of the deposited data

Results flagged for a closer look

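In the time course, the difference between WGD+ and WGD- tumours at day 14 was itself tested against that at day 8, and 3 members differed. The change was -1.86 for PSME2 (SE 0.35, adjusted p 0.0219 by limma), -1.25 for PSME1 (SE 0.30, adjusted p 0.0451 by limma) and -0.74 for PSMA1 (SE 0.18, adjusted p 0.0483 by limma). All 3 genes had a positive difference at day 8 and a negative one at day 14. The values were -2.05, -1.46 and -0.86 without the libraries that scored against their titles, where limma called none of them. With the replicate number as a block only PSME2 was called, and the adjusted p of PSME1 and PSMA1 was 0.0536 and 0.0791 by limma.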

How the results depend on the processing

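Among 54 called changes of named members, 54 kept their call on log2(CPM + 0.25), 51 with the replicate number as a block, 49 with limma voom on the recovered reads, 48 without the filter, 42 under quantile scaling and 38 when only the compared groups were fitted. Of 26 that use libraries that stand apart 12 kept their call without them, and of 6 that use libraries that scored against their titles 2 did. The higher PSME2 and PSME1 in A/J hosts of WGD- vehicle tumours (2.56 to 2.72 and 2.03 to 2.18) and the lower PSMA7 in WGD+ A/J vehicle tumours (-1.14 to -0.96, largest adjusted p 0.0499 by limma) kept direction and call in all 13 alternatives run for each. Among named members 116 values changed sign, 0 of them of a called change, and the largest had been 0.36 in size. With 2 or 3 libraries a group, changes of about the within-group SD could not be told from that spread.

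Counts of members called that moved by more than 1.5 times are given as the count under the setting against the count reported, and the cause of each move was not tested beyond the fewer samples or genes a setting has. Fitted on the compared groups alone they were 2 against 6 for ploidy in A/J vehicle tumours, 0 against 5 for ploidy in A/J YM-155 tumours, 9 against 2 for ploidy in NSG vehicle tumours, 25 against 12 for host in WGD+ vehicle tumours, 0 against 2 for YM-155 in A/J WGD- tumours, 2 against 0 for ploidy with anti-CD8, 2 against 0 for anti-CD8 in WGD- tumours, 0 against 1 for ploidy at day 8, 1 against 2 for time in WGD- tumours and 3 against 0 for time in WGD+ tumours. Under quantile scaling they were 5 against 10 for host in WGD- YM-155 tumours, 1 against 2 for YM-155 in A/J WGD- tumours, 1 against 0 for ploidy with anti-PD-L1, 1 against 0 for ploidy with anti-CD8 and 1 against 0 for time in WGD+ tumours. Without the filter they were 1 against 2 for YM-155 in A/J WGD- tumours, 0 against 1 for ploidy at day 8 and 1 against 3 for ploidy at day 14 less day 8. With voom on recovered reads they were 0 against 2 for YM-155 in A/J WGD- tumours, 0 against 1 for ploidy at day 8 and 1 against 3 for ploidy at day 14 less day 8. Without the libraries that stand apart, a setting chosen after seeing the data, they were 1 against 6 for ploidy in A/J vehicle tumours, 10 against 25 for host in WGD- vehicle tumours, 0 against 2 for YM-155 in A/J WGD- tumours, 0 against 1 for ploidy at day 8 and 1 against 0 for time in WGD+ tumours. Without the libraries that scored against their titles, chosen in the same way, they were 0 against 1 for ploidy at day 8 and 0 against 3 for ploidy at day 14 less day 8. With each library left out in turn they ranged from 2 to 9 for ploidy in A/J vehicle tumours, 2 to 5 for ploidy in A/J YM-155 tumours, 1 to 2 for ploidy in NSG vehicle tumours, 0 to 1 for ploidy in NSG YM-155 tumours, 0 to 8 for host in WGD- YM-155 tumours, 3 to 12 for host in WGD+ vehicle tumours, 0 to 3 for YM-155 in A/J WGD- tumours, 0 to 6 for ploidy with anti-PD-L1, 0 to 1 for ploidy with anti-CD8, 0 in each case for ploidy at day 8, 0 to 2 for ploidy at day 14, 0 to 2 for time in WGD- tumours and 0 to 3 for ploidy at day 14 less day 8.

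With the replicate number as a block, the counts were 1 against 0 for ploidy in NSG YM-155 tumours, 0 against 1 for ploidy at day 8 and 1 against 3 for ploidy at day 14 less day 8. It ended the calls of PSMA1 at day 8 (adjusted p 0.0887 by limma) and of PSME1 and PSMA1 in the difference between the days (adjusted p 0.0536 and 0.0791 by limma), and added those of PSMG4 for ploidy in NSG YM-155 tumours (adjusted p 0.0425 by limma) and PSMB6 for host in WGD- YM-155 tumours (adjusted p 0.0342 by limma). It changed no other call of a named member. The correlation of deviations between samples of the same number ran from -0.48 to 0.48 over the 23 comparisons. In none with 3 pairs did every pair exceed 0.1. Where there were 2 pairs, it was 0.40 and 0.46 for ploidy with anti-CD8, and -0.15 and -0.08 for anti-CD8 in WGD- tumours. So few pairs cannot tell whether samples of the same number share more than the number.

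Values of members not called that changed sign were, under quantile scaling, PSME3 -0.097 for host in WGD- YM-155 tumours, PSMB7 -0.00066 for ploidy with anti-PD-L1, PSMB5 -0.022 for anti-PD-L1 in WGD- tumours, PSMB6 -0.00011 for anti-CD8 in WGD+ tumours, PSME1 0.0050 for anti-CD8 in WGD+ tumours, PSME3 0.032 for ploidy in A/J less NSG hosts with YM-155, PSMB7 -0.027 for anti-PD-L1 in WGD+ less WGD- tumours and PSMB5 0.0070 for anti-CD8 in WGD+ less WGD- tumours, and without the libraries that stand apart PSME3 -0.0021 for YM-155 in A/J WGD- tumours, PSMB5 -0.29 for ploidy at day 8, PSMB5 -0.23 for time in WGD- tumours and PSMB6 0.0098 for ploidy at day 14 less day 8. With each library left out in turn, the changes that crossed 0 ranged as follows. That of PSMB5 ran from -0.010 to 0.22 for ploidy in NSG YM-155 tumours, -0.22 to 0.023 for host in WGD+ YM-155 tumours, -0.042 to 0.19 for YM-155 in NSG WGD- tumours, -0.0086 to 0.19 for ploidy with isotype, -0.17 to 0.16 for ploidy with anti-PD-L1, -0.093 to 0.094 for ploidy with anti-CD8, -0.11 to 0.21 for anti-PD-L1 in WGD- tumours, -0.21 to 0.11 for anti-PD-L1 in WGD+ tumours, -0.23 to 0.30 for ploidy at day 8, -0.23 to 0.30 for time in WGD- tumours, -0.23 to 0.10 for anti-PD-L1 in WGD+ less WGD- tumours, -0.18 to 0.035 for anti-CD8 in WGD+ less WGD- tumours and -0.075 to 0.46 for ploidy at day 14 less day 8. That of PSMB7 ran from -0.17 to 0.098 for ploidy in NSG YM-155 tumours, -0.15 to 0.043 for YM-155 in A/J WGD+ tumours, -0.045 to 0.15 for YM-155 in NSG WGD- tumours, -0.077 to 0.16 for ploidy with isotype, -0.039 to 0.22 for ploidy with anti-PD-L1, -0.041 to 0.10 for anti-CD8 in WGD- tumours, -0.083 to 0.0037 for ploidy at day 14, -0.082 to 0.081 for time in WGD- tumours and -0.099 to 0.16 for anti-PD-L1 in WGD+ less WGD- tumours. That of PSME3 ran from -0.048 to 0.027 for host in WGD- YM-155 tumours, -0.12 to 0.037 for host in WGD+ vehicle tumours, -0.092 to 0.019 for host in WGD+ YM-155 tumours, -0.081 to 0.030 for YM-155 in A/J WGD+ tumours, -0.074 to 0.0054 for YM-155 in NSG WGD- tumours, -0.11 to 0.048 for YM-155 in NSG WGD+ tumours, -0.14 to 0.0028 for anti-PD-L1 in WGD+ tumours, -0.040 to 0.10 for anti-CD8 in WGD+ tumours, -0.39 to 0.095 for time in WGD- tumours, -0.093 to 0.018 for ploidy in A/J less NSG hosts with YM-155, -0.0014 to 0.24 for anti-PD-L1 in WGD+ less WGD- tumours and -0.48 to 0.0035 for ploidy at day 14 less day 8. That of PSMB6 ran from -0.20 to 0.089 for host in WGD+ YM-155 tumours, -0.020 to 0.14 for YM-155 in A/J WGD- tumours, -0.078 to 0.074 for YM-155 in A/J WGD+ tumours, -0.078 to 0.056 for YM-155 in NSG WGD- tumours, -0.048 to 0.050 for ploidy with isotype, -0.11 to 0.027 for anti-PD-L1 in WGD+ tumours, -0.072 to 0.080 for anti-CD8 in WGD+ tumours, -0.054 to 0.26 for ploidy at day 14, -0.037 to 0.15 for time in WGD+ tumours, -0.033 to 0.13 for ploidy in A/J less NSG hosts with vehicle, -0.14 to 0.025 for YM-155 in WGD+ less WGD- A/J tumours and -0.30 to 0.0076 for ploidy at day 14 less day 8. That of PSME1 ran from -0.11 to 0.065 for YM-155 in NSG WGD- tumours, -0.49 to 0.088 for ploidy with anti-PD-L1, -0.012 to 0.33 for anti-PD-L1 in WGD- tumours and -0.46 to 0.27 for anti-CD8 in WGD+ tumours. That of PSME2 ran from -0.16 to 0.014 for YM-155 in NSG WGD- tumours, -0.70 to 0.029 for ploidy with anti-PD-L1, -0.095 to 0.46 for anti-PD-L1 in WGD- tumours, -0.47 to 0.14 for anti-CD8 in WGD+ tumours and -0.40 to 0.030 for time in WGD+ tumours. That of PSMA7 ran from -0.14 to 0.055 for ploidy at day 8.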
